A study of Homo sapiens and Mus musculus with 33 samples.

Results

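H3K18cr, crotonylation of lysine 18 on histone H3, was compared at the promoters of the same genes in HCT116 cells, an established human colon carcinoma line, and in mouse colon epithelium. The 8 libraries compared, of 33 in the series, were 3 H3K18cr ChIP-seq libraries and 1 input of HCT116 cells given the vehicle DMSO for 18 h, and 2 H3K18cr libraries and 2 inputs of colon epithelium. Per the study's methods the epithelium was stripped with EDTA from colons of male C57BL/6 mice kept specific pathogen-free, so it mixes all cell types of the colonic lining, while HCT116 is 1 line grown in culture. As further readouts, 4 HCT116 DMSO and 3 colon RNA-seq libraries, 3 HCT116 DMSO H3K18ac and 3 colon H3K4me3 libraries were set beside them. The methods describe pooling 3 colons for the immunoprecipitation while a legend of the study speaks of 2 mice, and for HCT116 the methods count 2 replicates where the table holds 3 columns. Whether the H3K18cr libraries are separate animals or cultures is therefore not settled, and the p-values against input measure only the spread between these libraries. The methods call the RNA and H3K4me3 libraries biological replicates, with a mouse each for colon RNA.

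Promoters were taken from the gene starts of the HCT116 and colon RNA tables. Of 35638 human and 25841 mouse gene names listed once, 14862 matched by upper-case symbol, and each gene was given its strongest H3K18cr peak within 1 kb of its start. A peak was found in both tables for 7590 genes (51.1%), called shared promoters here, in HCT116 only for 2196 (14.8%), in colon only for 1249 (8.4%) and in neither for 3827 (25.8%). Each table was scaled on its own, and species, cell state, chromatin protocol and library preparation differ together between the tables and cannot be told apart. Values were thus compared by rank: a percentile is a promoter's rank among the 7590 shared promoters within 1 library, from 0 (lowest) to 100 (highest), and a gap is the mean percentile of the HCT116 libraries minus that of the colon libraries, in points. No test was made between the tables.

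Lysine crotonylation is a short-chain acyl mark chemically close to acetylation. It is written by acetyltransferases such as p300 using crotonyl-CoA, removed by class I histone deacetylases and sirtuins, and bound by YEATS and double PHD finger domains. The mark lies mainly at active promoters. In the colon, microbes supply short-chain fatty acids, which colonocytes oxidise and turn into ketone bodies, and butyrate among them inhibits class I deacetylases.

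The promoters of 4 genes are printed first because they span the comparison: TMEM200B and E2F1 ranked far higher in HCT116, and EPS8L3 and LRIG1 far higher in colon. Each run is the 200 bases upstream of the gene start in the RNA table, 5′ to 3′ on the gene's strand, with CpG dinucleotides in capitals. The human runs (GRCh38) are chr1:29123936-29124135 (minus strand) for TMEM200B, chr20:33686405-33686604 (minus) for E2F1, chr1:109764028-109764227 (minus) for EPS8L3 and chr3:66501264-66501463 (minus) for LRIG1. The mouse runs (GRCm38) are chr4:131921571-131921770 (plus), chr2:154569893-154570092 (minus), chr3:107877030-107877229 (plus) and chr6:94700159-94700358 (minus) in the same order.
TMEM200B: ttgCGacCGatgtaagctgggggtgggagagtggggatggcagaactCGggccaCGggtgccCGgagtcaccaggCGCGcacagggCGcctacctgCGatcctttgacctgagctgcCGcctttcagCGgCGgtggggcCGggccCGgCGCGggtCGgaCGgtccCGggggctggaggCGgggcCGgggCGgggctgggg
Tmem200b: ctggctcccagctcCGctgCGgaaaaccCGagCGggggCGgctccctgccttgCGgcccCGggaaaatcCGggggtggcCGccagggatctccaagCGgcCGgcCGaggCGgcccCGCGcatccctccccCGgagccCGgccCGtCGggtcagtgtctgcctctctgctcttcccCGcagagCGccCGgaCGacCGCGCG
E2F1: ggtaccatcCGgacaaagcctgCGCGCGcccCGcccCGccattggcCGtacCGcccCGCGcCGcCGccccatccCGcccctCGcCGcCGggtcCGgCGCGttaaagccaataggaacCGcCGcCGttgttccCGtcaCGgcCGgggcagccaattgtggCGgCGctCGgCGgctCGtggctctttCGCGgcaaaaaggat
E2f1: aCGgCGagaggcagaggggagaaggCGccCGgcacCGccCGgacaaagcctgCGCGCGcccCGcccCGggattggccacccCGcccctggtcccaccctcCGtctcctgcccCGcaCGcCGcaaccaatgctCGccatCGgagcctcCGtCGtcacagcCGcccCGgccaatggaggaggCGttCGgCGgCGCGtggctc
EPS8L3: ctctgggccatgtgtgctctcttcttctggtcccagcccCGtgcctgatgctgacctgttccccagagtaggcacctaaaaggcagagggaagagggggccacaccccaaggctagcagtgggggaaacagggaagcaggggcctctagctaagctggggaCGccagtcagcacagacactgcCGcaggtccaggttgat
Eps8l3: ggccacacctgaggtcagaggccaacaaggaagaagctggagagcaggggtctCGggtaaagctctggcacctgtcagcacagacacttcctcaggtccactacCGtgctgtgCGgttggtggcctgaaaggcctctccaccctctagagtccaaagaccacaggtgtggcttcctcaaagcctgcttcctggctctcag
LRIG1: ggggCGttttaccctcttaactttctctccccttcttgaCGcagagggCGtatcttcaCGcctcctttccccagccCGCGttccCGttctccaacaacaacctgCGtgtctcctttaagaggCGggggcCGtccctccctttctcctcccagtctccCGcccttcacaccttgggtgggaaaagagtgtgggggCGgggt
Lrig1: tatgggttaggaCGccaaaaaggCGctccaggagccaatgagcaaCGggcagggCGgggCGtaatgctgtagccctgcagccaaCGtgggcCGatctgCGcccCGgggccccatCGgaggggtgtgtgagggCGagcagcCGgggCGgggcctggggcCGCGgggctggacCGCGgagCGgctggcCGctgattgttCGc
The runs of TMEM200B hold 22 CpGs in human and 26 in mouse, and those of E2F1 hold 32 and 27. EPS8L3 has 3 in either species, and LRIG1 12 and 20.

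Promoter H3K18cr ranks were far more alike within a table than between the tables. Across the 7590 shared promoters the group means correlated with a Spearman rho of 0.322, and the 6 pairs of 1 HCT116 and 1 colon library gave 0.293 to 0.331. Between HCT116 libraries rho was 0.931 to 0.979 and between the colon libraries 0.961. RNA levels, as depth-normalised counts (CPM) per kb of gene model in 4 HCT116 DMSO and 3 colon libraries, correlated more closely between the tables, with rho 0.558 over 7240 genes with RNA in both. These correlations run across genes, which are not independent replicates. The median absolute gap was 21 points, and 4305 promoters (56.7%) lay within 25 points.

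A gap was called where the libraries of HCT116 and colon did not overlap and the gap was at least 25 points. By this rule 1651 promoters (21.8%) ranked higher in HCT116 and 1633 (21.5%) higher in colon, and 4306 had no call. The rule fixes these counts, which are descriptions with no p-value. Of the 718 shared promoters in the top 10% in HCT116 and the 752 in colon, 205 were in both, 28.6% of the first and 27.3% of the second. The scatter of percentiles shows the spread, with genes described below labelled.

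**Figure D1:**
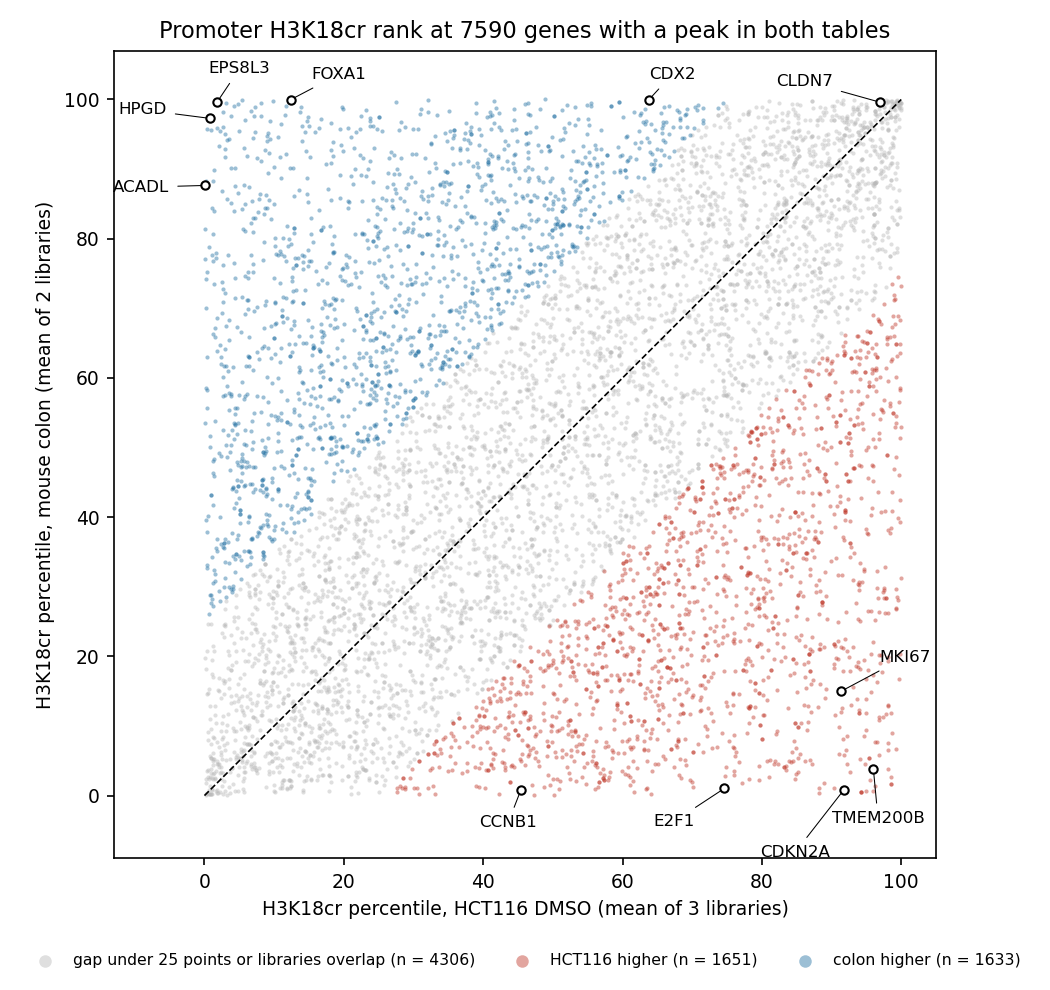
Mean H3K18cr percentile in colon (2 libraries, vertical) against HCT116 DMSO (3 libraries, horizontal) for the 7590 shared promoters, 1 point per gene, red where HCT116 was higher (1651), blue where colon was higher (1633) and grey otherwise (4306). Points fill the whole square around the dashed line of equal rank, with EPS8L3, HPGD and FOXA1 at upper left and CDKN2A, TMEM200B and E2F1 at lower right.

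Some genes ranked near the top in both. The highest by the lower of both means were BAHCC1, a chromatin protein with a BAH domain, CRIP1, a LIM domain protein, TNRC18, SMAD3, which carries TGF-beta signals to the nucleus, and TRIB1, a pseudokinase, all with mean percentiles of at least 99.4 in either group. At SMAD3 the HCT116 libraries had 4629, 4428 and 3307 scaled reads, each against 1563 in the input, and the colon libraries 695 and 1140 against 249 and 321. Both ChIP libraries of colon and all 3 of HCT116 were thus above their inputs, although the HCT116 peak spanned 57750 bp and the colon peak 10500 bp. The epithelial tight junction gene CLDN7 lay at 96.4, 97.1 and 97.5 in HCT116 and 99.5 and 99.7 in colon, the keratin gene KRT19 at means of 99 and 99.3, and EHF, an epithelial ETS factor, at 99.8 and 99.1. SOX9, a progenitor cell factor, lay at 98.1 and 95.8. TCF7L2, the transcription factor at the end of the Wnt pathway, had 99.9 and 98.7, MYC, its target, 99.4 and 90.9, and BBC3, a p53-induced apoptosis gene, 97.5 and 98.9. The top rank in both was by total reads, and other rankings kept it for some genes. When the group means were ranked per kb of peak TNRC18 had percentiles of 99.9 in HCT116 and 91.6 in colon and BAHCC1 95.5 and 99.4, while CRIP1 had 99.8 in HCT116 and 51.7 in colon, SMAD3 69.8 and 40.2 and TRIB1 50.7 and 86.0. The gap of CLDN7, with each library ranked per kb, was 38.4 points. By the ChIP to input ratio TNRC18 had 99.8 and 86.9, TRIB1 had 12.6 and 83.8, SMAD3 23.6 and 60.1 and BAHCC1 57.1 and 98.7.

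The 10 largest gaps toward colon among promoters that met the rule for named genes ran from -98.0 to -94.1. EPS8L3, a relative of the actin regulator EPS8, had 40, 27.3 and 43.3 scaled reads in HCT116 beside 20.9 in the input, and 755 and 1255 in colon beside 208 and 304. Its percentiles were 1.45, 0.718 and 3.30 in HCT116 and 99.7 and 99.6 in colon, and its RNA was 0 in all HCT116 libraries and 84.6 ± 1.6 CPM per kb (SD, n = 3) in colon. The HCT116 libraries all lay at the bottom and both colon libraries at the top, with a gap of -97.8 that stayed at -69.5 or beyond under every other ranking tried. HPGD, which degrades prostaglandins, had percentiles of 0.988, 0.534 and 0.995 against 97.8 and 96.8 and RNA of 0.133 ± 0.106 (SD, n = 4) against 80.4 ± 11.6 CPM per kb (SD, n = 3). LRIG1, a stem cell regulator that restrains EGF receptor signalling, had 2.89, 0.922 and 5.51 against 99.5 and 99.4, and RNA of 1.35 ± 0.155 against 59.5 ± 2.44 CPM per kb.

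For HPGD and LRIG1 the libraries did not overlap and the colon peaks were wide, 7200 and 10350 bp, beside 1200 bp in HCT116. With each library ranked per kb of peak and the ranks averaged, both gaps were -27.9. With the group's mean reads ranked per kb instead, HPGD had percentiles of 0.105 in HCT116 and 25.4 in colon and LRIG1 5.45 and 42.3. The serine protease TMPRSS4, the Cdc42 effector CDC42EP5, the membrane protein TMEM171 and the nucleotidase ENTPD8 had mean percentiles of 0.935 to 5.42 in HCT116 and 95.6 to 99.9 in colon. In colon their RNA was 38.9 to 120 CPM per kb, and in HCT116 0.0517 to 2.30.

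A further 3 genes at this end depended on which start was read. TGIF1, a homeodomain repressor, had a gap of -98.0 at the table's start but an HCT116 percentile of 99.1 when the strongest peak at any annotated protein-coding start was taken. PPP1R1B, a phosphatase inhibitor, moved from 4.26 to 95.0 in HCT116 in the same way. CPT1A, which admits long-chain fatty acids to mitochondria, moved from 4.74 to 73.4, which left it below its colon percentile of 99.4. ENTPD8, above, moved less, from 2.63 to 16.5 in HCT116, beside 98.1 in colon. For TGIF1 and PPP1R1B, HCT116 cells thus carried strong H3K18cr at another start of the gene.

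Toward HCT116 the 10 largest gaps among promoters that met the same rule ran from 89.3 to 94.3. TMEM200B, a transmembrane protein gene, had 674, 682 and 685 scaled reads in HCT116 beside 106 in the input, and 35 and 82.7 in colon beside 25 and 35.1. Its percentiles were 95.3, 95.9 and 96.7 against 1.27 and 6.28, and its RNA was 5.94 ± 0.965 (SD, n = 4) against 0.0251 ± 0.0434 CPM per kb (SD, n = 3). CDKN2A, the locus of the p16 and ARF tumour suppressors, had percentiles of 91, 91.1 and 93.1 against 0.731 and 0.797, with RNA of 14.7 ± 0.78 in HCT116 and 0 in every colon library. Under every other ranking tried, the gap of TMEM200B was at least 84.7 and that of CDKN2A at least 85.7.

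IRS1, an adaptor of insulin signalling, had 98.0, 98.0 and 98.2 against 0.876 and 6.73, and ISG15, an interferon-induced ubiquitin-like protein, 98.4, 98.1 and 99.4 against 10.9 and 7.19. MDC1, a DNA damage mediator, TRIP6, a LIM domain adaptor, TRNP1, a nuclear regulator of cell proliferation, BCOR, a corepressor, ALDH3B1, an aldehyde dehydrogenase, and LOXL4, a lysyl oxidase, had gaps of 89.3 to 93.2. RNA was higher in HCT116 for IRS1, ISG15, MDC1, TRIP6 and TRNP1, for instance 87.7 ± 29.5 against 4.83 ± 3.21 CPM per kb at ISG15. It was not at BCOR, with 2.24 ± 0.965 in HCT116 and 6.84 ± 0.496 in colon, and at ALDH3B1, with 3.98 ± 1.42 and 4.78 ± 1.19 CPM per kb, a difference within the SD. Ranked by the log2 ratio of ChIP to input instead of reads, the gap was 3.73 at BCOR, 13.4 at TRNP1, 22.5 at IRS1 and -1.13 at LOXL4. At ALDH3B1 it was 4.10 when the nearest peak was read instead of the strongest.

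**Figure D2:**
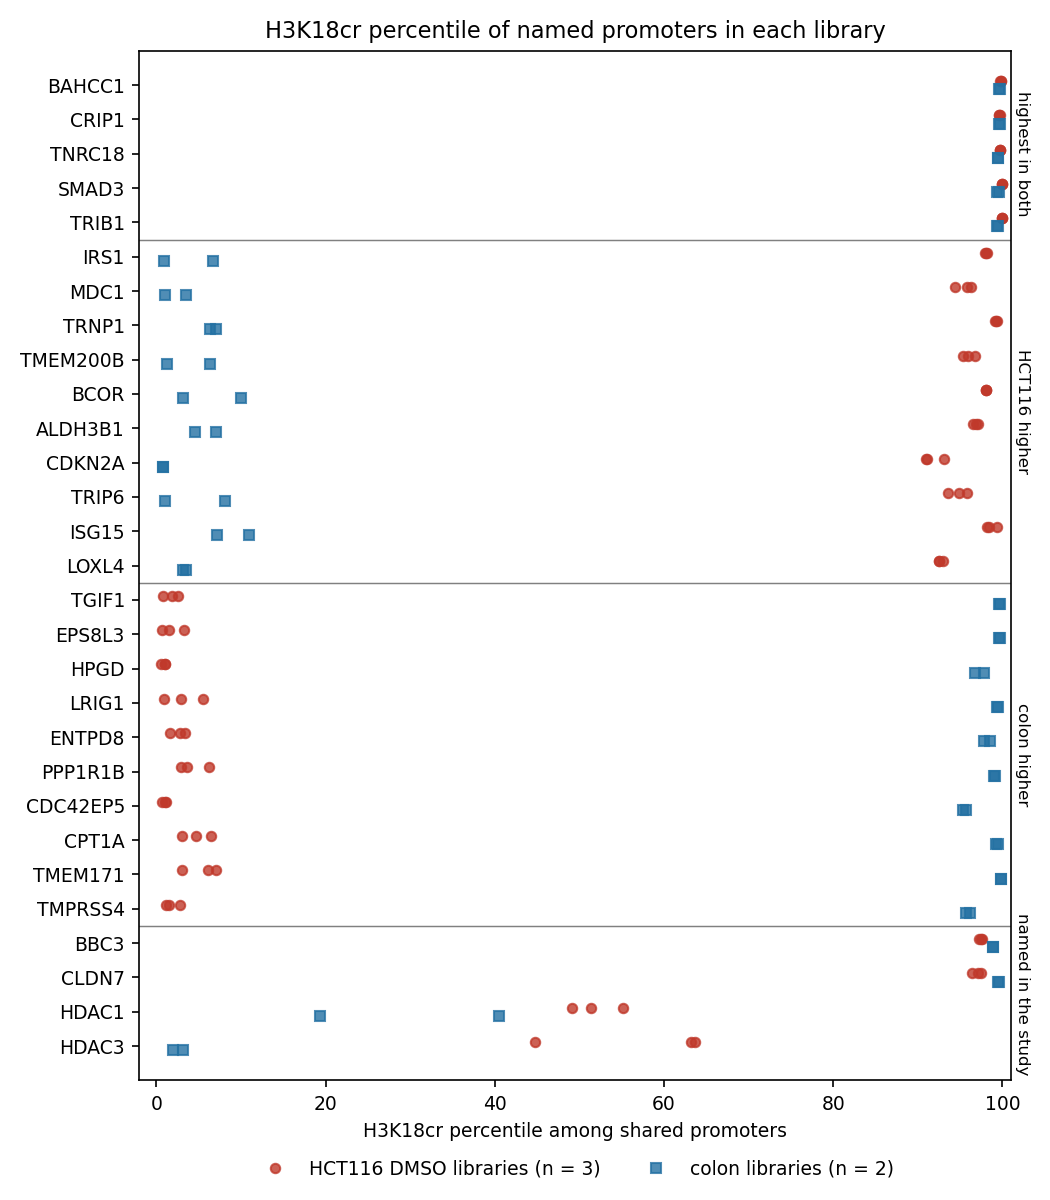
H3K18cr percentile among shared promoters (horizontal) of the named genes (vertical) in each library, red circles for the 3 HCT116 libraries and blue squares for the 2 colon libraries. In the groups with called gaps the libraries of each side sit close together at opposite ends, apart from HDAC3, while at HDAC1 the colon libraries lie at 19.3 and 40.5 and the HCT116 libraries at 49.2 to 55.2.

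Gene lists showed which parts of the epithelial programme these gaps fell in. Intestinal transcription factors ranked higher in colon. Of 26 matched genes, 14 had a peak in both tables, 8 in colon only, 3 in HCT116 only and 1 in neither. The shares of all matched genes in these classes were 51.1%, 8.4%, 14.8% and 25.8%. Among the 14 the median percentile was 58.2 in HCT116 and 98.8 in colon, beside 49.9 and 49.8 over all shared promoters. Of the 14, 8 were called higher in colon and 0 higher in HCT116, beside 21.5% and 21.8% of all shared promoters. With peaks within 0.5 kb of the start 5 of 11 were called, and 4 of 14 with ranks over all peaks of each table. FOXA1, a pioneer factor, had percentiles of 13.4, 10.1 and 13.5 in HCT116 and ranked among the very highest in both colon libraries, with 98, 81.9 and 77.3 scaled reads in HCT116 and 1374 and 2537 in colon. CDX2, the master regulator of intestinal identity, had 70.1, 62.6 and 58.8 in HCT116 and likewise topped the range in colon, with 1778 and 2973 scaled reads. The colon peak at CDX2 spanned 19800 bp and the HCT116 peak 3300 bp, and CDX2 RNA was 6.55 ± 0.463 in HCT116 and 208 ± 23.0 CPM per kb in colon.

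GATA6, an endoderm factor, had means of 41.6 and 99.8, and the fatty acid sensor PPARG 39.0 and 98.0. VDR, the vitamin D receptor, had 6.72 and 98.4, although with any annotated start its HCT116 percentile was 55.2. Those with a peak in colon only included CDX1, HNF4A and ISX. The colon libraries had 636 and 1109 scaled reads at CDX1 and 223 and 353 at HNF4A, where mean HCT116 RNA was 0 and 0.0407 CPM per kb. Without a call, EHF lay above in the group high in both, and KLF5, a factor of proliferating crypt cells, had 91.6 in HCT116 and nearly the highest rank in colon.

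Of 17 absorptive colonocyte genes, 10 had a peak in colon only, 0 in HCT116 only, 5 in both and 2 in neither, beside 8.4% in colon only over all matched genes. The colon-only genes included AQP8, a water channel, GUCA2B, which encodes uroguanylin, and CEACAM1 and CDHR5, adhesion molecules of the apical surface. Of the colon-only genes 2, CEACAM1 among them, had an HCT116 peak at another annotated start. With any annotated start 7 of the 17 had a peak in both and 10 in colon only, beside 8454 and 907 of all 14862 matched genes. GUCA2A, which encodes guanylin, had percentiles of 5.81, 7.75 and 8.12 in HCT116 against 99.2 and 98.6 in colon, with RNA of 0 against 939 ± 232 CPM per kb. The other 4 shared members had no call, and SCNN1A, a subunit of the epithelial sodium channel, had 98.6 in HCT116 and 90.8 in colon. Per kb of peak 3 of the 5 were called higher in HCT116 and 1 higher in colon, and by the ratio 2 and 1. The epithelial lectin gene LGALS4 had a colon peak with 868 and 1524 scaled reads, none in HCT116, and RNA of 0 there. Fewer cells of a type and less mark per cell cannot be told apart in these bulk libraries.

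Of 15 goblet genes, 2 had a peak in both, 5 in colon only, 4 in HCT116 only and 4 in neither, beside 8.4%, 14.8% and 25.8% of all matched genes for the last 3 classes. The colon-only genes included SPDEF and ATOH1, which specify goblet cells, and AGR2, a mucin-folding enzyme with 135 and 269 scaled reads in colon. TFF3, a trefoil peptide gene, and SPINK4, a protease inhibitor gene, had no peak in either table, also at any other annotated protein-coding start, although colon RNA reached 1609, 1263 and 1289 CPM per kb at TFF3 and 1712, 2323 and 2840 at SPINK4. Both also lacked an H3K4me3 peak, the mark of active promoters, within 1 kb in colon. ZG16, a secreted lectin, had 1630, 1292 and 902 CPM per kb of RNA in colon and 0 in HCT116, but its H3K18cr peak was in HCT116, with 60, 90.1 and 74.2 scaled reads beside 36.5 in the input. High RNA in the mixed epithelium was thus found at several secretory genes with no H3K18cr peak called.

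Of 17 enteroendocrine genes 14 and of 14 tuft cell genes 10 had a peak in neither table, beside 25.8% of all matched genes. At CHGA, a secretory granule gene, colon RNA was 49.7 ± 1.63 CPM per kb (SD, n = 3), and no peak was called. Markers of cells that an epithelial preparation can still hold were checked in the same way. Of 23 immune genes 0 had a colon peak at the table's start, 4 had one in HCT116 and 19 in neither, and their RNA summed to 14.1 CPM per kb in HCT116 and 27.8 in colon, with 6 and 0 members at 0. Of 21 stromal, endothelial, muscle and glial genes 1, the intermediate filament gene VIM, had a peak in both tables, 4 in HCT116 only (ACTA2, COL1A1, DES and TAGLN), 1, PDGFRB, in colon only and 15 in neither. The shares of all matched genes in these classes were 51.1%, 14.8%, 8.4% and 25.8%. RNA of the list summed to 4.07 and 26.4, with 3 and 2 at 0. Of 17 general epithelial genes 14 had a peak in both and 3 in colon only, beside 51.1% and 8.4% of all matched genes. Their RNA summed to 1449 and 6511, so the labelled colon epithelium expressed its defining markers, and HCT116 expressed KRT8, KRT18, KRT19 and EPCAM RNA.

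Among the 14 shared general epithelial genes, 4 were called higher in colon and 1 higher in HCT116, beside 21.5% and 21.8% of all shared promoters. The other 9 had no call, and the median gap was -2.17. With ranks over all peaks the calls were 0 and 1, beside 435 and 1959 of the 7590 shared promoters. Without genes on shared peaks the median gap went to -18.9, with 4 and 0 calls of 11. CDH1, which encodes E-cadherin, had 40.4, 27.9 and 49.7 in HCT116 and 95.8 and 95.7 in colon, EPCAM, an epithelial adhesion molecule, means of 60.6 and 94.7 and CLDN3, a claudin, 41.9 and 98.7. KRT18 was called higher in HCT116, with 96.8 in HCT116 and 51.2 in colon, although its human peak was shared with KRT8. RNA of CDH1 was 11.6 ± 4.73 against 216 ± 16.4 and of KRT18 327 ± 39.9 against 278 ± 19.3 CPM per kb.

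**Figure D3:**
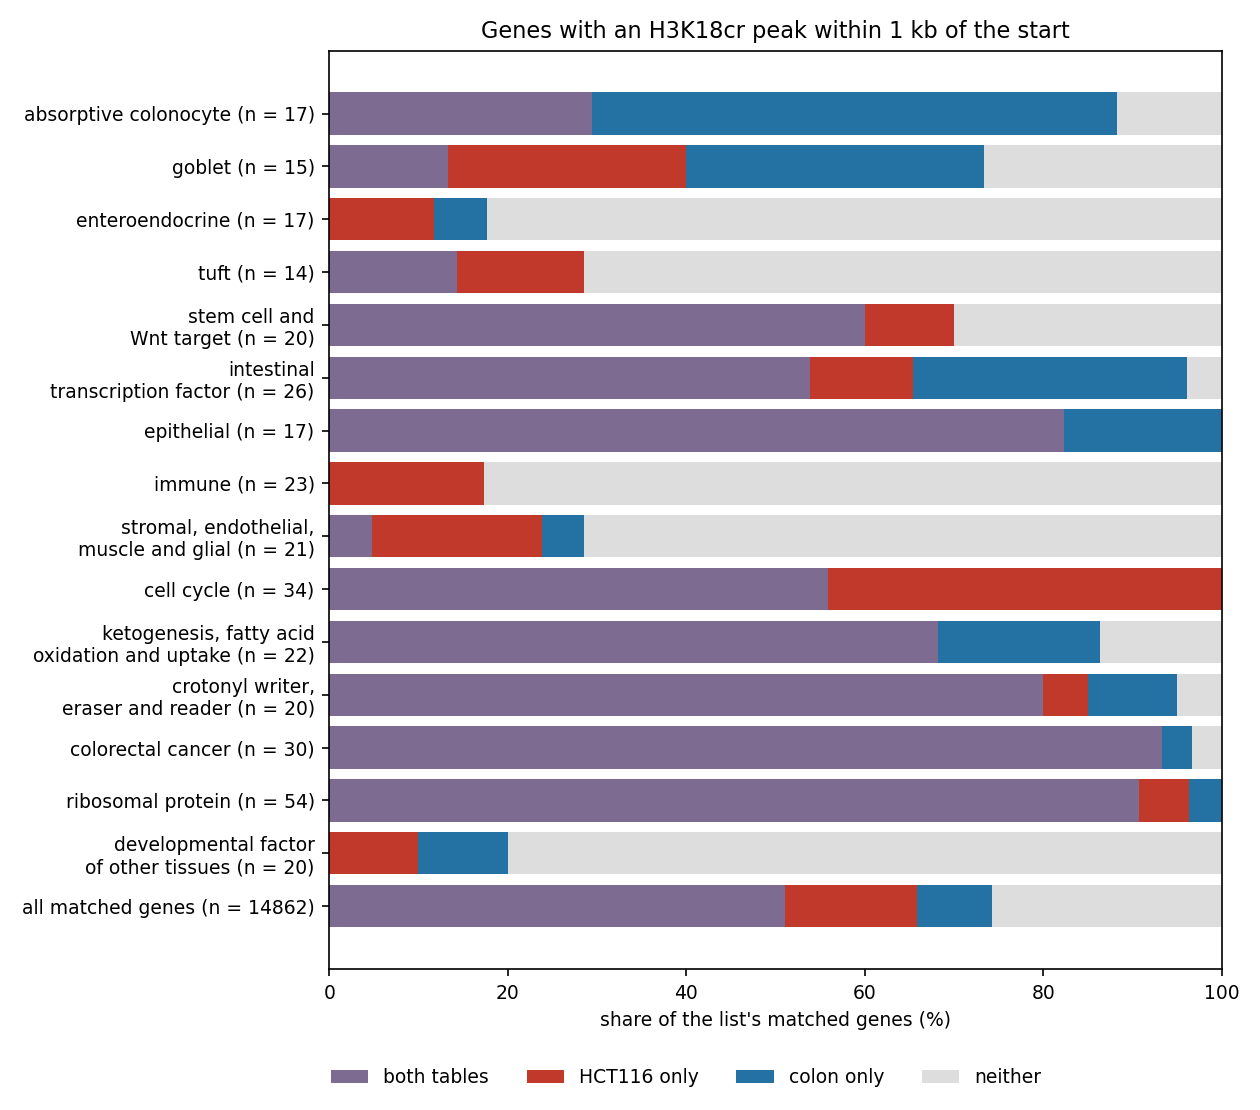
Share of each list's matched genes (horizontal, %) with an H3K18cr peak within 1 kb of the start in both tables (purple), HCT116 only (red), colon only (blue) or neither (grey), for 15 lists and all 14862 matched genes (vertical, number matched in parentheses). Cell cycle genes all had a peak in HCT116 and none in colon only, absorptive colonocyte genes had 10 of 17 in colon only, and immune and developmental genes mostly had none.

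Cell cycle genes ranked in the opposite direction. All 34 had a peak in HCT116, 19 of them in colon as well and 15 in HCT116 only. Of all matched genes 51.1% had a peak in both and 14.8% in HCT116 only. With any annotated start the counts were again 19 and 15, beside 8454 and 2156 of all 14862 matched genes. All 34 had an H3K4me3 peak in colon, as did 11377 of all 14862 matched genes. Among the 19 the median percentile was 60.7 in HCT116 and 17.6 in colon, and 14 were called higher in HCT116 and 1 higher in colon, beside 21.8% and 21.5% of all shared promoters. Per kb of peak the calls were 12 and 0, and by the ChIP to input ratio 10 and 1.

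MKI67, the proliferation antigen Ki-67, had 564, 501 and 381 scaled reads in HCT116 beside 213 in the input, and 63.6 and 118 in colon beside 44 and 48.8. Its percentiles were 93.4, 92.5 and 88.4 against 11.7 and 18.3, and RNA was 36.1 ± 1.77 (SD, n = 4) against 10.8 ± 2.09 CPM per kb (SD, n = 3). E2F1, which switches on S-phase genes and whose promoter is printed above, had 74.2, 72.7 and 76.9 against 1.27 and 0.797. The replication helicase subunit MCM4 had means of 83.2 and 4.08, the nucleotide synthesis enzymes RRM2 93.4 and 18.6 and TYMS 84.6 and 17.6, and the cyclins CCNB1 45.4 and 0.817 and CCNE1 54.8 and 1.59. CDC6, which loads the helicase, was the exception at 24.4 and 76.5, while its RNA was 27.6 ± 6.95 in HCT116 and 2.81 ± 0.27 CPM per kb in colon.

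The genes with a peak in HCT116 only included the mitotic kinases CDK1 and AURKB, the checkpoint kinase BUB1 and MCM2, MCM3, MCM5, MCM6 and MCM7 of the MCM helicase genes. At CDK1 the HCT116 libraries had 201, 175 and 138 scaled reads beside 45.6 in the input, and at MCM7 478, 446 and 413 beside 79.5. In colon CDK1 RNA was 6.98 ± 1.22 and MCM7 RNA 20.8 ± 0.91 CPM per kb, so these genes were transcribed with no H3K18cr peak called. Summed over the list, RNA was 1972 CPM per kb in HCT116 and 440 in colon.

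Ribosomal protein genes also ranked higher in HCT116. Of 54, 49 had a peak in both, beside 51.1% of all matched genes, and the median percentile was 67.2 in HCT116 and 35.9 in colon. HCT116 was called higher at 27, for instance RPL38 at 91.7 and 17.9 and RPS16 at 93.8 and 25.4, and colon at 0, beside 21.8% and 21.5% of all shared promoters. By the ChIP to input ratio the calls were 21 and 8. RNA of these genes is treated as uncertain, since reads shared with near-identical copies were not tested.

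**Figure D4:**
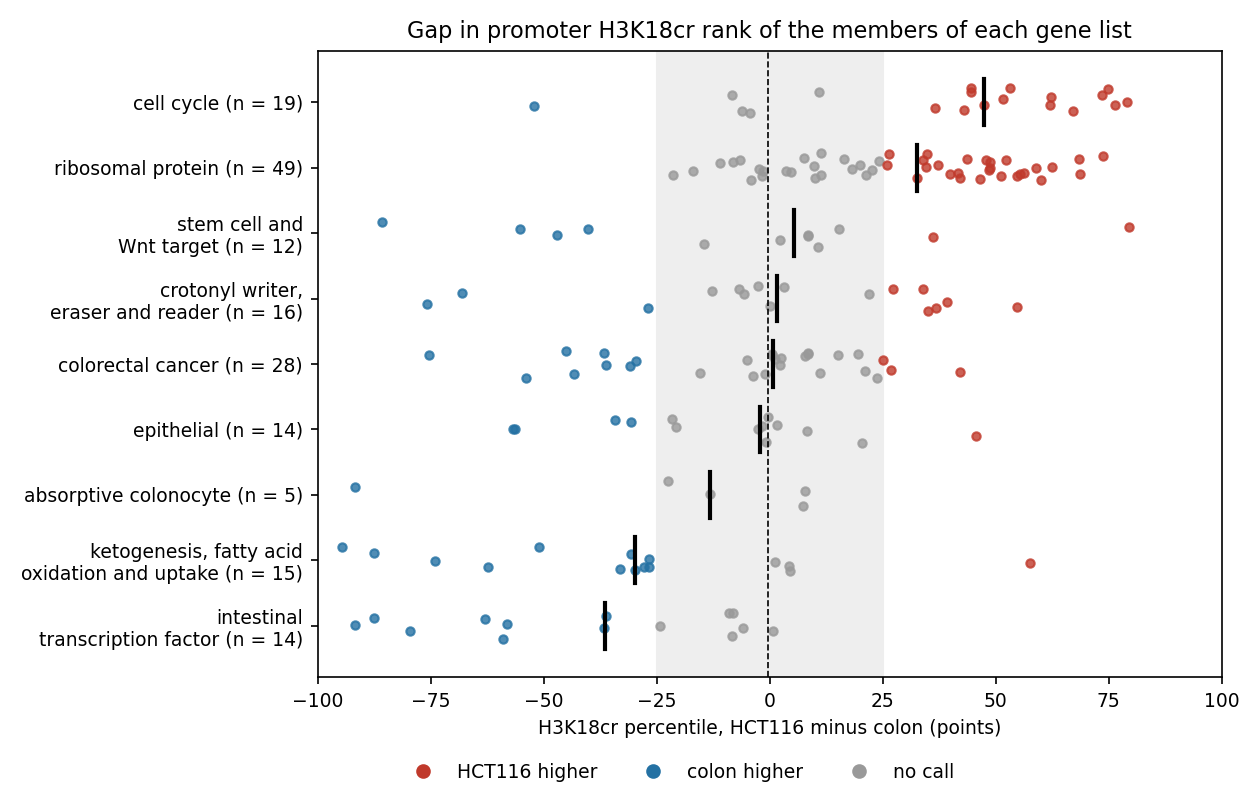
Gap in H3K18cr percentile, HCT116 minus colon (horizontal, points), of each member with a peak in both tables, for lists with at least 5 such members (vertical), red where called higher in HCT116, blue where called higher in colon, grey otherwise. Black bars mark list medians, the dashed line the median over all shared promoters (-0.435) and the shaded band 25 points either side of 0. Cell cycle and ribosomal protein medians lie to the right (47.4 and 32.6), intestinal transcription factor and fatty acid oxidation medians to the left (-36.4 and -29.8).

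Genes of ketogenesis, fatty acid oxidation and short-chain fatty acid uptake ranked higher in colon. Of 22, 15 had a peak in both, 4 in colon only and 3 in neither, beside 51.1%, 8.4% and 25.8% of all matched genes. Among the 15 the median percentile was 34.1 in HCT116 and 79.0 in colon. The calls were 11 higher in colon and 1 higher in HCT116, beside 21.5% and 21.8% of all shared promoters. HADHA and HADHB, the subunits of the mitochondrial trifunctional protein, shared a peak in both tables, and without genes on shared peaks the calls were 8 and 0 of 11. With ranks over all peaks they were 4 and 2, beside 435 and 1959 of the 7590 shared promoters. Per kb of peak they were 7 and 1, and by the ChIP to input ratio 5 and 4. The median gap was -29.8 as reported, -13.6 per kb and 5.45 by the ratio, so the ratio turned its direction.

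ACADL, a long-chain acyl-CoA dehydrogenase, had 15, 8.19 and 7.73 scaled reads in HCT116 beside 2.61 in the input, and 248 and 473 in colon beside 90 and 91.6. Its RNA was 0 in every HCT116 library and 56.1 ± 6.29 CPM per kb in colon. OXCT1, which breaks ketone bodies down, had means of 27.7 and 90.1, and CPT2, the inner membrane carnitine transferase, 34.2 and 85.3. SLC5A8, a butyrate transporter, had a peak in colon only, with 90.6 and 152 scaled reads. At ECHS1, which hydrates crotonyl-CoA, H3K18cr ranked higher in colon (2.96 and 33.5) while RNA was 68.0 ± 7.85 in HCT116 and 20.5 ± 1.54 CPM per kb in colon. ACSS2, which makes acetyl-CoA and other acyl-CoAs, was called higher in HCT116, at 81.6 and 24.1, with a peak shared with another gene in both tables.

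Of 20 enzymes and readers of crotonylation, 16 had a peak in both, 1 in HCT116 only, 2 in colon only and 1 in neither. The shares of all matched genes in these classes were 51.1%, 14.8%, 8.4% and 25.8%. Among the 16, 6 were called higher in HCT116 and 3 in colon, beside 21.8% and 21.5% of all shared promoters. The median gap was 1.66 and had no stable direction: by the ChIP to input ratio it was 28.6 with 8 and 3 calls, with any annotated start -1.36 with 5 and 4, and without genes on shared peaks -2.76 with 2 and 2 calls of 11. EP300, the crotonyl writer, had means of 89.2 and 95.0. KAT2B, an acetyltransferase, had 8.62 and 84.4, and MLLT3, which encodes the YEATS domain reader AF9, 21 and 89, both called higher in colon. HDAC3 had 63.2, 63.7 and 44.8 in HCT116 against 3.16 and 1.93 in colon, with a peak shared with another gene in both tables, and RNA of 19.8 ± 1.58 and 22.3 ± 1.04 CPM per kb. HDAC1 had 55.2, 51.4 and 49.2 against 19.3 and 40.5, a gap of 22 without a call that turned to -6.12 with peaks within 2 kb. HDAC2 had a peak in colon only, with 221 and 329 scaled reads, but HCT116 had one at another annotated start, and RNA was 15.2 and 13.9 CPM per kb. The sirtuin genes SIRT1, SIRT2 and SIRT3 were each called higher in HCT116, but with any annotated start SIRT1 was at 42 in HCT116 and 73.9 in colon.

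Colorectal cancer genes had a peak in both tables in 28 of 30 cases, beside 51.1% of all matched genes, with 8 called higher in colon and 3 in HCT116, beside 21.5% and 21.8% of all shared promoters. Per kb and by the ChIP to input ratio, 7 were called higher in colon and 8 in HCT116, so the balance turned. With ranks over all peaks the calls were 1 in colon and 3 in HCT116, beside 435 and 1959 of the 7590 shared promoters. APC, a tumour suppressor of the complex that degrades beta-catenin, had 12.4, 23.9 and 19.3 in HCT116 against 93.3 and 94.4 in colon, and SMAD4, a TGF-beta signal carrier, means of 48.7 and 84.9. CCND1, which drives entry into the cell cycle, had 98.7 and 73.5. ARID1A, a chromatin remodeller, had 98.4 and 56.4 at the table's start, but 97.8 in colon with any annotated start. Of 20 stem cell and Wnt target genes, 12 had a peak in both, 2 in HCT116 only, 0 in colon only and 6 in neither. The shares of all matched genes in these classes were 51.1%, 14.8%, 8.4% and 25.8%. Among the 12, 2 were called higher in HCT116 and 4 in colon, beside 21.8% and 21.5% of all shared promoters. By the ChIP to input ratio these calls were 0 and 6, and the median gap turned from 5.34 to -22.0, as it did per kb, to -5.46. CD44, a hyaluronan receptor, had 97.2 and 17.7 by reads and 52.0 and 54.5 by the ratio. PROM1, a crypt surface marker, had 9 and 94.8 by reads and 69.5 and 64.7 by the ratio. The crypt stem cell markers LGR5, ASCL2 and OLFM4 had a peak in neither table, although HCT116 had one at another annotated start of ASCL2. CDKN1A, the cell cycle inhibitor p21, had a peak in HCT116 only, with 460, 409 and 345 scaled reads beside 108 in the input, while colon had a peak at another annotated start. ADAD1, a testis gene, had no peak and RNA of 0 in both. Of 20 developmental factors of other tissues 16 had a peak in neither, beside 25.8% of all matched genes.

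RNA, which was not used to place the promoters in rank, followed the gap. RNA rank was higher in HCT116 at 70.7% of the promoters called higher in HCT116, 52.2% of those without a call and 27.3% of those called higher in colon. Across 7240 genes the H3K18cr gap and the RNA gap correlated with rho 0.366. In the 110 genes with gaps below -75 the median RNA gap was -43.5 points and RNA ranked higher in HCT116 in 7.27%, while in the 97 genes above 75 it was 17.8 points and 77.3%. Genes with a peak in 1 table differed likewise, with a median RNA of 1.83 CPM per kb in HCT116 and 0.378 in colon for HCT116-only genes, and 0.108 and 4.41 for colon-only genes. CDC6, ECHS1, BCOR and TGIF1, above, were among those that went against this order. RNA of TGIF1 was 13.5 ± 3.66 in HCT116 and 8.44 ± 0.263 CPM per kb in colon.

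**Figure D5:**
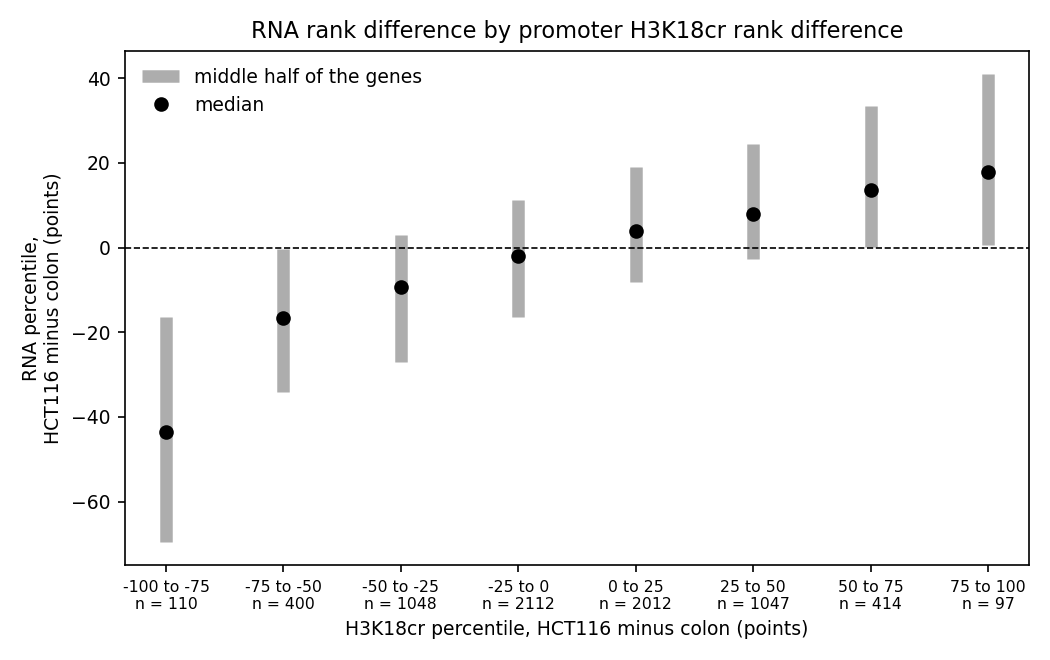
Difference in RNA percentile (vertical, points) by difference in H3K18cr percentile (horizontal, points), both HCT116 minus colon, in bins of 25 points with the number of genes under each. Dots are medians and bars the range of the genes between the lower and upper quartile. Genes with the most negative H3K18cr differences have a median RNA difference of -43.5 points, and those with the most positive 17.8.

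Peak shape moved with the gap. Promoters called higher in HCT116 had median peak widths of 3750 bp in HCT116 and 1350 bp in colon, those called higher in colon 2250 and 2400 bp, and all shared promoters 2850 and 1800 bp. Reads in a peak correlated with its width with rho 0.902 in HCT116 and 0.941 in colon and with its input reads with rho 0.847 and 0.909. Ranked per kb of peak, 899 of the 1651 HCT116-higher and 904 of the 1633 colon-higher promoters kept their call, and 57 and 36 turned to the opposite one. Ranked by the ChIP to input ratio, 826 and 845 kept it, and 119 and 94 turned. H3K18ac in HCT116 ranked almost as H3K18cr did, with rho 0.963, and H3K4me3 in colon correlated with colon H3K18cr with rho 0.537. Of the shared promoters 98.3% had an H3K4me3 peak in colon.

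Gaps also moved with the human chromosome. On chromosomes 17, 8 and 10 the median HCT116 percentile was 69.4, 67.7 and 66.1, and 36.9%, 35.4% and 29.5% of their promoters were called higher in HCT116. The HCT116 input had a median of 22, 22.4 and 19.5 reads per kb there, and 17 to 19.4 on the other autosomes. Chromosome 19 had 33.8% of its promoters called higher in HCT116, more than chromosome 10, with 18.4 input reads per kb, and was not among the chromosomes left out below. On the X chromosome medians were 10.5 in HCT116 and 4.18 in colon, with 9.48 input reads per kb. Without these 4 chromosomes 1384 and 1387 of 6365 promoters were called, and cell cycle genes gave 10 calls of 12 toward HCT116 and 0 toward colon. The stem cell and Wnt target median gap turned from 5.34 to -26.2 with 1 and 4 calls of 8, the epithelial median went from -2.17 to -18.8 and the absorptive one from -13.3 to -1.37. Ranked by scaled ChIP reads minus scaled input reads, 1472 of the 1651 HCT116-higher and 1459 of the 1633 colon-higher promoters kept their call. Without peaks in the highest 1% of input reads per kb, 1557 and 1576 kept it, and by the ratio, above, 826 and 845. Beyond these rankings, the part of input depth in these gaps was not tested.

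CpG content was close between the classes, and the E2F motif was more frequent at promoters called higher in HCT116 in both species, which was not tested. Within 500 bases of the start, the median number of CpGs in human was 75 at HCT116-higher and 74 at colon-higher promoters, and in mouse 66 and 71, beside 74 and 69 over all. CpG-rich promoters, with observed over expected CpG of at least 0.6 and GC of at least 50%, made up 84.1% and 80.0% in human and 79.6% and 77.5% in mouse. The difference in CpG number between species correlated with the gap with rho 0.0931. Of the motifs searched on both strands from 250 bases before to 50 after the start, the E2F motif GGCGGGAA was in 6.24% of HCT116-higher and 3.67% of colon-higher human promoters, against 5.02% of all, and in 6.36% and 3.31% of mouse ones, against 4.51%. The ETS motif CCGGAAG was in 15.9% and 14.1% of human promoters, against 15.7%, and in 21.2% and 16.5% of mouse ones, against 19.6%. The CDX motif TTTATG was in 5.33% and 6.86% of human promoters, against 6.03%, and in 6.12% and 6.61% of mouse ones, against 6.30%. The HNF4 motif CAAAGTCCA was in 0.182% and 0.184% of human and 0.363% and 0.122% of mouse promoters, against 0.237% and 0.290%, and the GATA motif AGATAA in 5.15% and 5.51% of human and 5.15% and 5.27% of mouse ones, against 5.93% and 5.18%. The CHR motif TTTGAA was in 9.93% and 9.61% of human and 10.2% and 9.25% of mouse promoters, against 9.99% and 10.5%. The TATA box TATAAA was in 6.36% and 5.02% of human and 6.30% and 6.00% of mouse ones, against 5.69% and 6.01%, and the NRF1 motif in 1.94% and 2.21% of human and 1.76% and 2.51% of mouse ones, against 2.19% and 2.16%. A match is a run of letters and not a site.

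H3K18cr was set against input within each table, where peaks had been called for enrichment, so the counts describe the tables. With limma on log2(scaled reads + 1), 27330 of 30338 colon peaks (90.1%) were above input at a Benjamini-Hochberg adjusted p under 0.05 and 0 below. With limma on the deposited log2 scaled reads, with nothing added, 28341 of 39320 HCT116 peaks (72.1%) were above and 0 below. Of the shared promoters 7433 of 7587 tested in HCT116 (98.0%) and 7342 of 7590 in colon (96.7%) were above, with median log2 ratios of 1.75 and 1.56. The HCT116 contrast had 1 input, assumed to vary like the ChIP libraries. The colon count rested on having both inputs, and fell when 1 was left out. The median log2 ratio over colon peaks was then 1.16 without input replicate 1 and 1.47 without input replicate 2. Without ChIP replicate 1 it was 1.62, and without ChIP replicate 2, which had more reads in peaks, 1.01, beside 1.31 with all libraries. With effective library sizes from the peaks themselves (TMM) the count above input was 2249 in colon and 5452 in HCT116, since that scaling set the median ratio to about 0. Reads in peaks were 3197649 to 5730094 in the HCT116 ChIP libraries, 2190272 and 3451663 in those of colon, and 1187019 to 1550122 in the inputs, and the lowest shared promoters had means of 8.82 scaled reads in HCT116 and 26.5 in colon.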

How the data were processed

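The authors deposited colon ChIP-seq signal per peak as reads scaled to the largest library, and HCT116 values as log2 of such scaled reads, which were turned back to the linear scale here. MACS peaks from SEQMONK formed 1 list per table (40266 on GRCh38, 30338 on GRCm38). The authors deposited RNA-seq as raw counts per gene. Per the submitters' processing notes reads were handled with Trim Galore 0.4.2, Bowtie2 2.2.5 and TopHat2 2.0.12. Duplicates were removed, antibody PTM-517 served both systems, and sonication and library preparation differed. Dividing each column by its factor gave whole reads within 0.02.

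Peak edges lie on steps of 150 bp. A gene's promoter was the strongest peak within 1 kb of its start in the RNA table. RNA was the mean of CPM per kb of gene model. Peaks with a mean of at least 10 scaled reads were tested against input with limma 3.58.1 (pseudocount 1 in colon, none in HCT116). Alternatives were edgeR 4.0.16 and DESeq2 1.42.0 on whole reads, under R 4.3.3. Reference starts came from GENCODE 44 and M21. Across the tables there was no test. Checks on simulated data, with few peaks raised among unchanged ones, recovered known changes. Most peaks of these tables lay above input, a setting that the checks did not cover.

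Members and lists were chosen with earlier results of these data known. Genes named were the 5 with the highest lower mean, the 10 with the largest gap in each direction (libraries not overlapping, at least 50 scaled reads in the higher group, peak shared with no other gene), genes the study names, per list the members at the extremes, and up to 4 examples of members with a peak in 1 table, in list order. Other list members in the text, the printed promoters, and 2 alternatives (any annotated start, 4 chromosomes left out) were chosen after the values were seen. MS275 libraries were not used here. Some members of the lists are not reported here by name.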

Additional observations from a re-analysis of the deposited data

How the results depend on the processing

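Each alternative changed 1 choice. The correlation between HCT116 and colon ranks, 0.322 as reported, was 0.221 per kb of peak, 0.201 by the ChIP to input ratio, 0.353 without genes that share a peak, 0.351 with any annotated start and 0.299 without human chromosomes 8, 10, 17 and X. Calls were 903 and 872 (HCT116, colon) at a gap of at least 40 points and 2964 and 3070 with no minimum. With ranks over all peaks of each table, 435 were higher in colon. That ranking places promoters among distal peaks, and 1959 were higher in HCT116. Peaks above input in colon were 2249 with TMM and 9 to 29975 when 1 library was left out, and in HCT116 5452 with TMM and 17920 with DESeq2, which gave an adjusted p for 30172 peaks. The lone HCT116 input could not be left out. With the replicate number as a replicate block, 30316 colon peaks were above input. The differences between numbers 1 and 2 in ChIP and input correlated at 0.0383, so the numbers gave no sign of pairing. Among genes named by the rule on gaps or by the study, directions reversed at HDAC1 within 2 kb (-6.12), BBC3 (3.94) and CLDN7 (38.4) per kb, and CLDN7 (28.8) and LOXL4 (-1.13) by the ratio. Some list members turned too, such as SIRT1 with any annotated start (42 in HCT116, 73.9 in colon) and CD44 (52.0 and 54.5) and PROM1 (69.5 and 64.7) by the ratio. Of the other values of named genes, 337 stayed within the spread between libraries and 113 moved beyond it, and of list medians 103 and 41. The absorptive colonocyte median gap turned from -13.3 to 30.6 per kb and to 18.1 by the ratio. The cause of these shifts was not tested. With 3 and 2 libraries, no group could be examined for outlying samples, and depth limits the lowest ranks, where colon means went down to 26.5 scaled reads and HCT116 means to 8.82.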
